A study of Mus musculus with 6 samples.

Results

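Long intergenic noncoding RNAs (lincRNAs) are long transcripts with little or no coding capacity whose genes lie between protein-coding genes. Some of them act on chromatin, some scaffold nuclear bodies, and many have no known role. They are often present at low levels and in few cell types. Microarrays of this design read them with sets of probes tiled into genomic intervals, often on both strands, so one interval can be measured several times over.

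The lincRNA region probes described here are the non-control probes whose design names start with A_30_P and whose Cy5 signal was well above background on 3 or more of 6 arrays. Of 16251 such probes on the array, 8178 met this rule (50.3%). By the same signal rule 34544 of all 55681 non-control probes were kept (62.0%), and 71.8% of the RefSeq mRNA probes. The kept probes read 2882 intervals of mouse genome build mm9 on 20 chromosomes, or 3704 when the strands are counted apart. The interval's name gives its position, and a closing F or R is taken here as the strand. Another 35 kept probes carry a transcript's name in place of a position. The median interval was 8751 bases long, 1432 intervals and strands had a single kept probe, and none had more than 10. Probes of one interval may read the same transcript and cannot be taken as independent of each other.

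RNA was taken from sorted mammary cells of virgin C57/B6 mice carrying the lgr5-egfp-ires-creert2 allele, in which EGFP is made from the Lgr5 locus. Sorting kept Lin-negative cells that were positive for CD24 and high for CD29, a gate named P4, and all 6 samples share strain, allele and virgin state. The Lgr5-positive group (n = 3) was EGFP-positive within that gate and the Lgr5-negative group (n = 3) was EGFP-negative. The labels give no age and do not say whether animals were pooled or whether the replicates are separate animals, so p-values measure the spread between these samples, which may be partly technical. Each sample was labelled with Cy5 and hybridised beside a Cy3-labelled universal reference RNA, a mix of 11 mouse cell lines. All values below are log2 (Cy5/Cy3) ratios, and a log2 fold change is Lgr5-positive minus Lgr5-negative.

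The arrays had 0 saturated spots, a median Cy5 signal of 137 to 169 in the positive group and 200 to 278 in the negative group, and a median Cy5 background of 64 to 76. Between 38.5% and 64.6% of the region probes were well above background on an array, with no separation of the groups. Lgr5, the R-spondin receptor that defines the sort, had ratios of 4.24, 5.36 and 5.01 in positive replicates 1 to 3 and of 2.84, 4.04 and 3.31 in negative replicates 1 to 3. The difference was 1.47 (SE 0.40) with a limma adjusted p of 0.429 for the group alone and 0.0013 with the replicate number as a block, and Lgr5 was well above background on all 6 arrays. The mean level of 10 basal markers was 4.14 to 4.42 in the positive group and 3.51 to 3.88 in the negative group, with 10 of 10 higher and 5 past the threshold with the block. That of 12 endothelial markers was 1.30 to 2.37 in the positive group and 3.19 to 3.80 in the negative group, with 11 of 12 lower and 9 past the threshold with the block. Of 9 markers of hormone-sensing luminal cells, 9 were lower and 7 passed with the block (mean level 0.31 to 0.76 against 1.54 to 1.93). Of 8 pericyte markers 7 were lower, and 4 of these passed with the block. Of 9 fibroblast markers 7 were lower, with 4 lower and 1 higher past the threshold. Luminal progenitor markers were mixed, with 4 of 5 lower, 2 of these passing, and Lcn2 higher by 0.62 (limma adjusted p 0.033 with the block). Leukocyte markers were split, with 5 of 8 higher and 1 passing, which was lower. In RNA from bulk fractions, fewer cells of a type and less RNA per cell cannot be told apart.

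Few lincRNA regions separated the fractions. Of 8171 region probes tested (7 had a spot flagged as an outlier), 1 passed a limma adjusted p of 0.05 with the group alone, against 0.101% of all 34520 probes tested. It read chr6:129151512-129208737 on F and was higher in Lgr5-positive cells, as were 0.00579% of all probes (0.0956% were lower). With the replicate number as a block, 63 region probes passed, 37 higher and 26 lower (0.771%), against 4.42% of all probes (1.23% higher, 3.2% lower) and 7.05% of mRNA probes. Of these 63, 17 changed by at least 2-fold. The 26 lower ones include 2 that were well above background on 0 positive arrays and were kept only through the negative group. Without normalization for brightness (median centring, no loess), which moved the median of all probes to -0.21, the block called 26 higher and 532 lower. The count with the block was 6 without the arrays of replicate 2 and 116 without those of replicate 1. At an unadjusted p under 0.05 there were 119 region probes with the group alone (1.46%) and 743 with the block (9.09%), against 5.35% and 16.98% of all tested probes.

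The sizes of the differences were small. The median log2 fold change of the region probes was 0.059 (0.054, 0.078 and 0.050 in pairs 1 to 3), beside 0.030 over all tested probes and 0.0053 over mRNA probes. It was -0.12 with median centring and -0.0062 without positive replicate 1. In 26 region probes (0.318%) the difference reached 2-fold in either direction, against 4.13% of mRNA probes. The 3 values of one group all lay beyond those of the other in 473 region probes (5.79%), 289 higher and 184 lower, where the same held for 9.1% of all probes (3.52% higher, 5.59% lower). In 4 classes of brightness, from dimmest to brightest, 0.294%, 0.392%, 0.881% and 1.52% of region probes were called with the block, against 5.19%, 4.77%, 6.67% and 8.04% of mRNA probes. These shares are descriptions, since the difference between the classes was not tested. The median standard error with the block was 0.122 for region probes and 0.127 for mRNA probes.

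**Figure D1:**
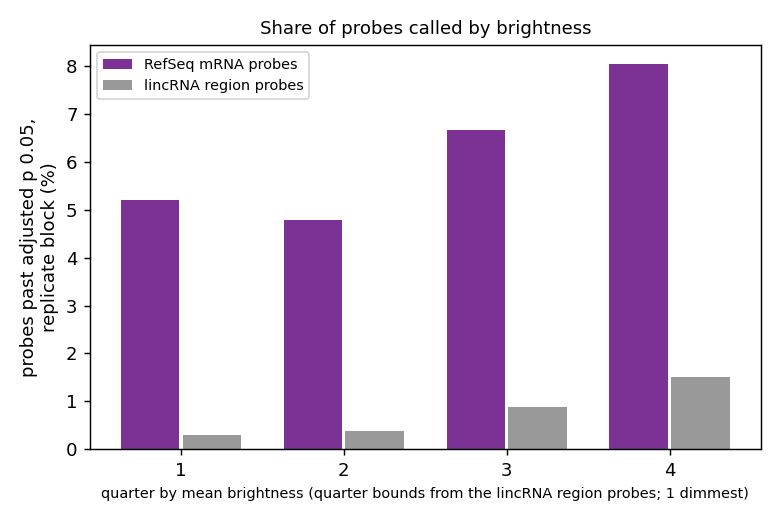
Share of probes past a limma adjusted p of 0.05 with the replicate block (vertical axis, percent) in 4 brightness classes that hold equal numbers of lincRNA region probes (horizontal axis, 1 is dimmest). Grey bars are region probes, which run from 0.294% to 1.52%, and purple bars are RefSeq mRNA probes, which lie between 4.77% and 8.04%.

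The region with the clearest difference was chr6:129151512-129208737 on F, read by probe A_30_P01029340. Its ratios were 3.60, 3.63 and 3.49 in Lgr5-positive replicates 1 to 3 and 2.15, 1.75 and 1.72 in Lgr5-negative replicates 1 to 3. The positive arrays lay close together and all above the negative ones. The log2 fold change was 1.70, or 3.24-fold, with a limma adjusted p of 0.042 for the group alone (SE 0.17) and 8.6e-04 with the block (SE 0.13). Leaving out 1 array gave an adjusted p of 0.020 without negative replicate 1 and of 0.104 to 0.257 without any of the other 5. The scanner's own ratios gave 1.71 with an adjusted p of 0.081. Of 10 probes on that strand of the interval, 2 were tested, and the second had a log2 fold change of 0.15. All 7 tested probes of the opposite strand lay between -0.078 and 0.22.

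Among the other regions that rose with the block was chr5:113594167-113645342 on F (probe A_30_P01021303). Its ratios were 3.05, 2.65 and 2.58 in positive replicates 1 to 3 against 1.74, 0.90 and 1.74 in negative ones, with no overlap. The log2 fold change was 1.30, with an adjusted p of 0.0073 with the block and 0.245 with the group alone. The other 3 tested probes of that strand were between 0.082 and 0.19.

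By the naming rule, which takes probes whose groups do not overlap, the next was A_30_P01027702 in chr1:139713316-139913366 on R, with 1.63, 1.75 and 1.26 in positive cells and 0.79, 0.64 and 0.44 in negative cells. It rose by 0.92 with an adjusted p of 0.0066 with the block. All 5 tested probes of that strand were higher, from 0.010 to 0.92, and the remaining 4 did not pass.

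chr11:3521324-3539552 on F was read alike by its probes. The named probe, A_30_P01022443, had 2.34, 3.06 and 2.31 in positive cells and 2.01, 1.97 and 0.98 in negative cells, a log2 fold change of 0.92 with an adjusted p of 0.041 with the block. All 3 probes of the interval were higher, between 0.66 and 0.92, and 2 of them passed. chr8:93337794-93348869 on R was similar, with all 3 probes higher, from 0.73 to 1.01, and 2 past the threshold with the block (lowest adjusted p 0.011). In chr8:40238025-40264250 on F both tested probes rose with the block, by 0.59 and 0.77.

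The further named regions that rose with the block did so by 0.63 to 0.82 on the log2 scale, through 1 probe each. They were chr17:35080914-35090009 on F (0.82), chr13:60508775-60534625 on R (0.78), chr4:44181997-44249172 on F (0.70) and chr5:112205091-112240992 on F (0.69). Then came chr10:81816994-81863610 on F (0.65), chr4:45079022-45096897 on R (0.65), chr17:46972160-46997919 on R (0.64) and chr16:4585697-4594022 on R (0.63). On F the chr17:35080914-35090009 interval held a second non-overlapping probe at 0.90, which did not pass in either fit, and on R 1 of its 7 tested probes rose by 0.58 (adjusted p 0.046 with the block).

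**Figure D2:**
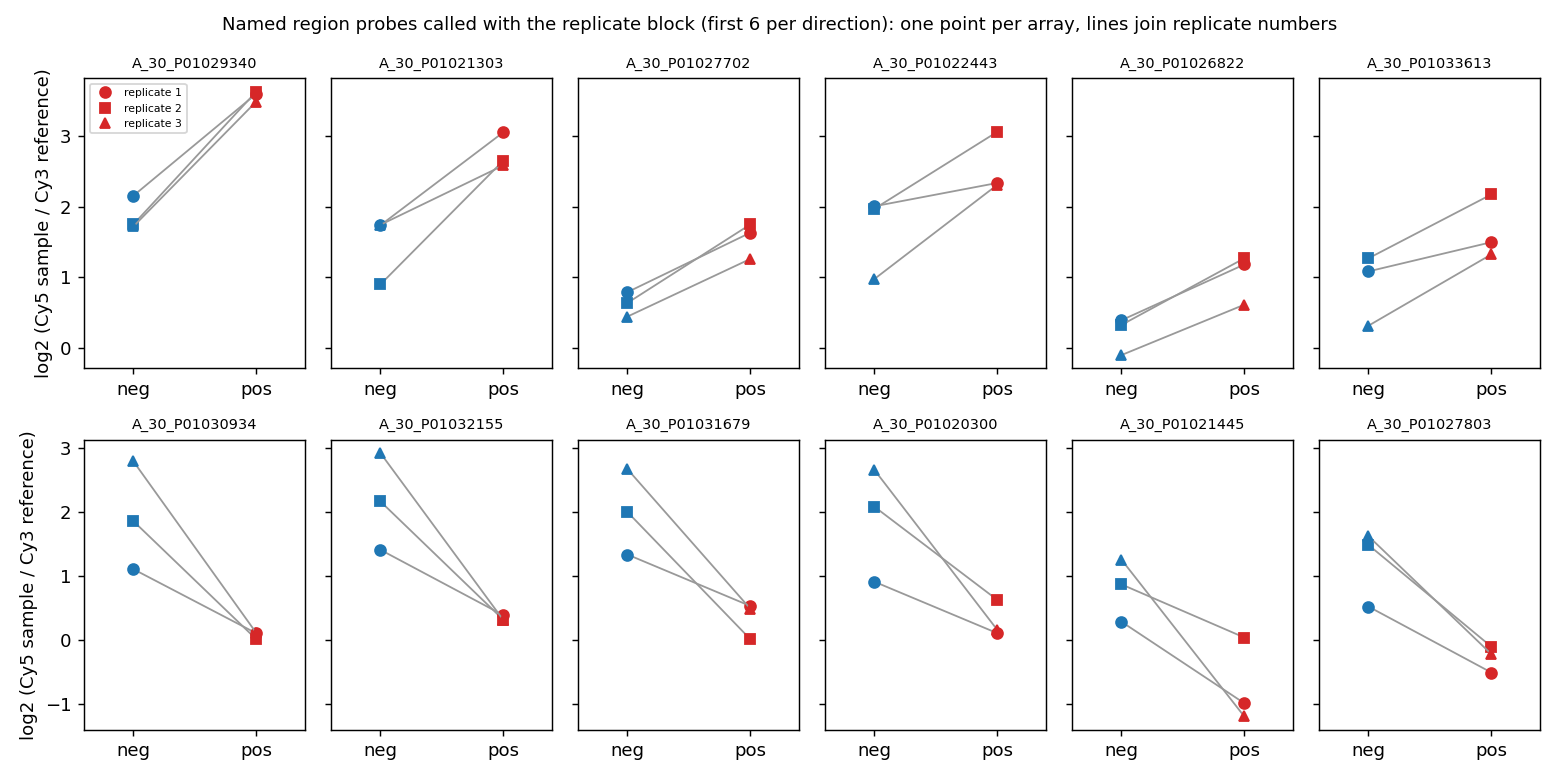
Log2 (Cy5/Cy3) ratio (vertical axis) of 12 region probes called with the replicate block, the first 6 named in each direction, by fraction (horizontal axis: neg is Lgr5-negative, pos is Lgr5-positive). Each symbol is 1 array, lines join arrays with one replicate number, and upper panels show probes that rose, such as A_30_P01029340 from 1.72 to 2.15 up to 3.49 to 3.63, while lower panels show probes that fell.

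The named probes lower with the block had log2 fold changes of -1.85 to -1.23, and 8 of the 12 were well above background on all 3 positive arrays. chr2:67836003-67836461 on F (probe A_30_P01030934) had 0.10, 0.01 and 0.11 in positive replicates 1 to 3 against 1.11, 1.86 and 2.80 in negative ones. Positive values lay close together and near the reference, while the negative ones were all higher and widely spread. It was well above background on 1 of 3 positive arrays, so the size is uncertain. Its log2 fold change was -1.85, with an adjusted p of 0.011 with the block and 0.255 with the group alone, and it was -3.39 with the scanner's ratios. The other tested probe of this short interval was at 0.11.

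A similar layout held for chr12:111287772-111333890 on F (probe A_30_P01032155), with 0.39, 0.32 and 0.31 in positive cells and 1.41, 2.17 and 2.93 in negative cells. It fell by 1.83, with an adjusted p of 0.0093 with the block, whereas the other 3 tested probes of that strand lay between -0.0059 and 0.056. chr17:33995525-34028025 on F (probe A_30_P01031679) had 0.53, 0.01 and 0.49 against 1.34, 2.00 and 2.68. It fell by 1.66 with an adjusted p of 0.011 with the block, and the other 5 probes of that strand lay between -0.030 and 0.15. chr9:37063322-37063718 on F (probe A_30_P01020300) fell by 1.59 (adjusted p 0.021 with the block) beside a second probe at 0.094.

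In these 4 regions, then, a single probe passed and its neighbours within the same interval and strand lay near 0. Their negative replicates had the same order, with replicate 3 highest and replicate 1 lowest. In the negative group the mean of the 12 endothelial markers was 3.19, 3.59 and 3.80 in replicates 1 to 3, but only 4 of the 12 had that order themselves. That of the hormone-sensing luminal markers was 1.54, 1.93 and 1.62, of the luminal progenitor markers 1.57, 2.57 and 2.20, and of the pericyte markers 0.69, 0.84 and 0.41. Their part in these differences was not tested.

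In chr6:31170350-31287353 on F and chr6:4841700-4847400 on R all tested probes were lower, though only 1 of each passed with the block. chr6:31170350-31287353 on F (probe A_30_P01031155) had -0.95, -0.81 and -1.47 in positive cells and -0.07, 0.33 and 0.64 in negative cells. It fell by 1.37 with an adjusted p of 0.016 with the block and 0.183 with the group alone, and all 3 probes of the interval were lower without overlap, from -1.37 to -0.54. chr6:4841700-4847400 on R (probe A_30_P01021445) fell by 1.52 with an adjusted p of 0.024 with the block, with its other probe at -0.60, and was well above background on 2 of 3 positive arrays. chr6:115468025-115489250 on F and chr8:122945743-122946192 on F fell by 1.35 and 1.23 through the 1 probe tested in each, so agreement between probes cannot be judged there.

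chr1:52507374-52514124 on F (probe A_30_P01027803) had -0.51, -0.11 and -0.22 in positive cells and 0.52, 1.49 and 1.62 in negative cells. No positive array had it well above background in Cy5, so it was kept only through its signal in the negative group. Its log2 fold change of -1.49 (adjusted p 0.0035 with the block) is given as a value, the scanner's ratios gave -3.27, and the bound from Cy5 alone was left out because it exceeded the fold of the ratio. The same detection pattern, well above background on all 3 negative and on 0 positive arrays, was found in 19 region probes, and the reverse in 0. These entered in the same way, so their number supports nothing about the groups. Another of them among the called probes, in chr1:186560855-186563399 on F, was at least 1.44-fold lower (adjusted p 0.037 with the block). That bound uses Cy5 alone, normalized by loess and then Aquantile, and is open to dye bias.

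**Figure D3:**
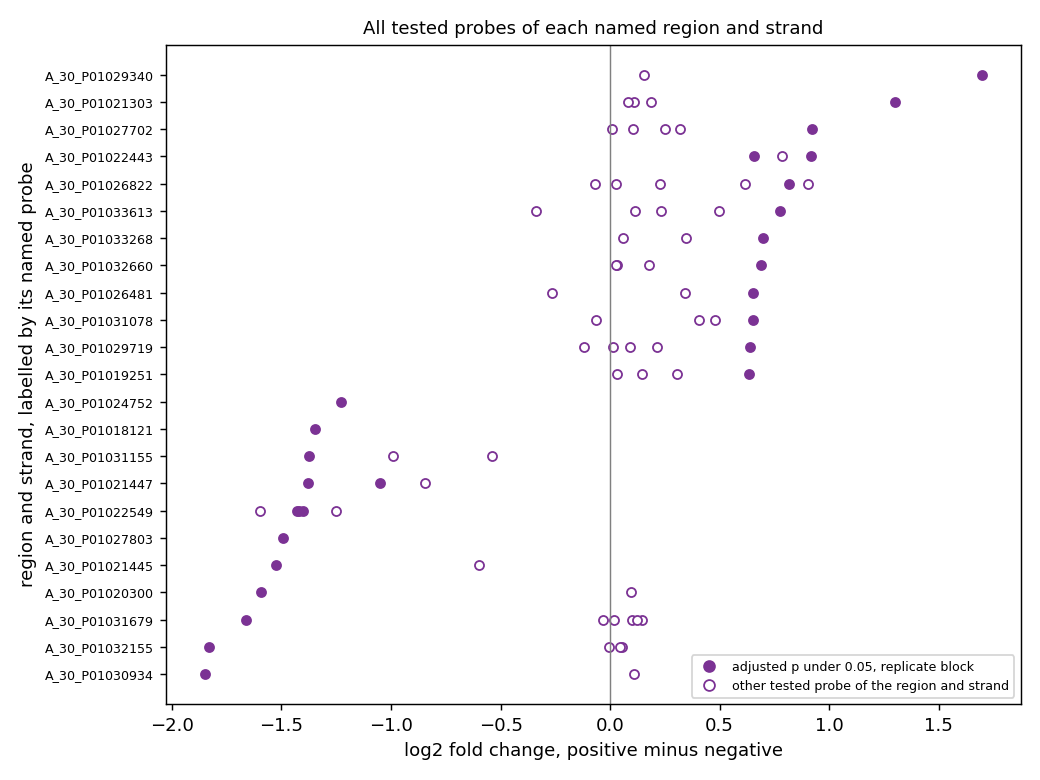
Log2 fold change (horizontal axis) of every tested probe in the intervals and strands of the named region probes, one line per interval and strand, labelled by its named probe (vertical axis). Filled points passed an adjusted p of 0.05 with the replicate block and open points did not; A_30_P01032155 at -1.83 stands apart from its 3 neighbours near 0, while the lines of A_30_P01021447 and A_30_P01022549 hold lower probes alone.

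A stretch of chromosome 1 held the only called regions with a gap under 500 kb between them. Calls with the block lay in chr1:175653557-175671940 and chr1:175705225-175717250, both on R and 33284 bases apart, and no stretch of the genome held 3 or more called regions with gaps under 500 kb. Within 250 kb on either side, all 19 tested region probes lay in these intervals or in 2 further design intervals that overlap the first. All 13 probes on R were lower in Lgr5-positive cells, by 0.56 to 1.64 on the log2 scale (median -1.38). Of these, 12 did so without overlap, against 5.59% of all tested probes. With the block 5 of the 13 passed, against 3.2% of all tested probes called lower. All 13 had an unadjusted p under 0.05 with the block, against 16.98% of all tested probes. With the group alone 0 passed. The stretch was chosen for its called probes and some of its intervals overlap, so these counts are descriptions. They include A_30_P01021597, kept only through its signal in the negative group. All 6 probes on F lay between -0.25 and 0.14, and the lowest block adjusted p among them was 0.393.

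The mean ratio of the 13 probes on R was -2.44, -2.31 and -2.55 in positive replicates 1 to 3 and -2.01, -1.16 and -0.36 in negative replicates 1 to 3. Both fractions thus lay below the reference, with the positive arrays close together and the negative ones spread. The median difference was -0.44 in pair 1, -1.16 in pair 2 and -2.28 in pair 3. For probe A_30_P01021447 of the first interval, the ratios were -2.82, -2.53 and -2.80 against -1.99, -1.25 and -0.78, which is a fall of 1.38 (block SE 0.21) with an adjusted p of 0.013 with the block and 0.287 with the group alone; it was well above background on 2 of 3 positive arrays. For probe A_30_P01022549 of the second interval they were -2.91, -2.31 and -2.25 against -2.16, -1.07 and 0.03, which is a fall of 1.42 (block SE 0.26) with an adjusted p of 0.025 with the block. The brighter named probe of that interval, A_30_P01018824, had -2.31, -2.36 and -2.33 against -1.75, -1.11 and 0.14. It fell by 1.43 (block adjusted p 0.046). The brightest tested probe there, A_30_P01024163, fell by 1.60 and did not pass (block adjusted p 0.051). Probe A_30_P01021597 of chr1:175654606-175672031 on R was well above background on 0 of 3 positive arrays. Its Cy5 bound is at least 2.74-fold lower (block adjusted p 0.062). The part of the endothelial, luminal, pericyte and fibroblast markers, most of which were lower in the positive group, was not tested here either.

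**Figure D4:**
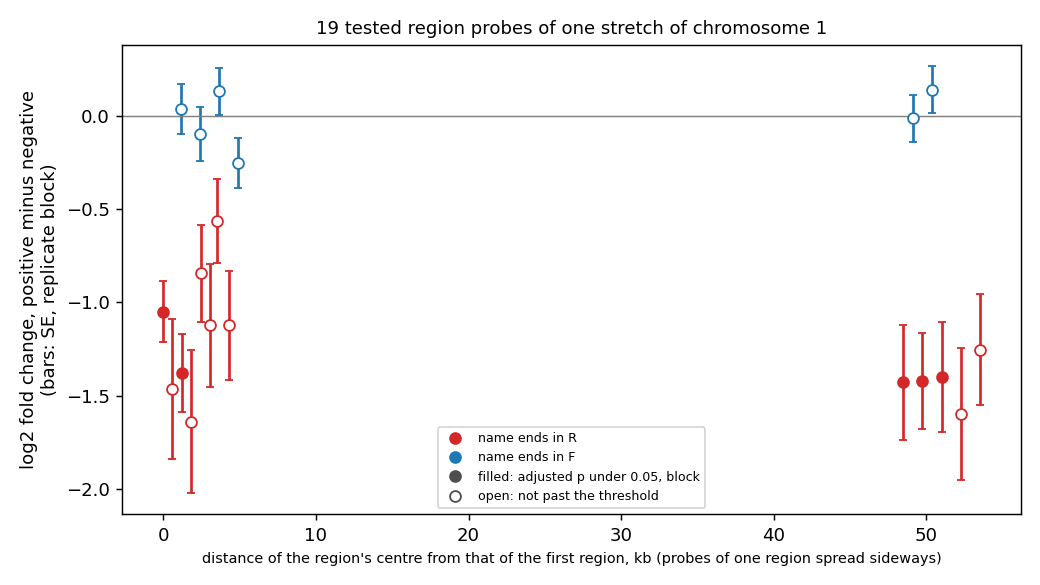
Log2 fold change with its SE from the replicate block (vertical axis) of 19 tested region probes in a stretch of chromosome 1, by distance of the interval's centre from that of the first interval (horizontal axis, kb; probes of one interval are spread sideways). Red marks the 13 probes on R, all below 0 and at most -0.56, blue the 6 probes on F between -0.25 and 0.14, and filled points passed an adjusted p of 0.05.

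Across all regions, probes of one interval agreed in part. The 63 called probes lay in 57 intervals and strands, of which 5 had 2 or more called probes. Of the other 141 tested probes in these intervals and strands, 101 had the sign of the called probe (71.6%). Over all 2268 intervals and strands with a position and 2 or more tested probes, the 2 brightest had the same sign in 60.1%, and their log2 fold changes correlated at 0.278. Of all tested region probes 65.4% were higher, so 2 unrelated probes would also share a sign more often than not. The correlation is across intervals, whose probes share arrays and normalization. Of 1188 intervals and strands with 3 or more tested probes, 4 had all of them lower without overlap and 0 had all of them higher without overlap. The 4 were 3 overlapping or neighbouring intervals of the chromosome 1 stretch and chr6:31170350-31287353 on F. Among the 3 is chr1:175654606-175672031 on R, which holds A_30_P01021597, kept only through its signal in the negative group.

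Both strands were tested in 822 regions. The brightest probes of the strands had the same sign in 504 of these (61.3%), with a correlation of 0.0227 between their log2 fold changes, and they differed by 1 or more in 10. Since 65.4% of all tested region probes were higher, 2 unrelated probes would also share a sign more often than not. The 65.4% is a share of higher probes and is not itself an expected share of agreement. In 0 regions did the brightest probes of both strands pass with the block, and in 1, chr17:35080914-35090009, a probe of each strand passed when all tested probes are counted. The called probes were spread over 17 chromosomes, with 13 on chromosome 1 (6 higher, 7 lower) and 9 on chromosome 6 (2 higher, 7 lower), and with 0 on chromosomes 7, 14 and X. Chromosome 1 held 20.6% of the called probes and 7.31% of all tested ones with a position. For chromosome 6 these shares were 14.3% and 6.22%. Of the calls on chromosome 1, 5 lay in the stretch described above, so they are not separate regions.

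Among the transcripts named on the array, 10 of 12 had a kept probe and none passed in either fit. XIST, which coats and silences an X chromosome in female cells, had 5 probes, all lower, with a median of -0.38. Its mean ratios were -0.94, -1.10 and 0.04 in positive replicates 1 to 3 and -0.81, -0.55 and 0.38 in negative ones. Replicate 3 was highest in both groups and the groups overlapped. The lowest block adjusted p was 0.099, and 4 of the 5 probes had an unadjusted p under 0.05 with the block. A further pair of Xist probes, named by accession, gave 0.052 and -0.10.

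NEAT1, the scaffold of nuclear paraspeckles, had 5 probes between -0.31 and -0.089 with a lowest block adjusted p of 0.422. NEAT2, the design's name for Malat1, a nuclear speckle RNA, had 3 probes between -0.22 and -0.056. In both transcripts negative replicate 3 was the highest array, at a mean of -2.14 for NEAT1 and -1.67 for NEAT2, and both lay well below the reference throughout.

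PINC, a noncoding RNA named for pregnancy-induced expression in the mammary gland, was read by 3 probes that differed among themselves. One, A_30_P01025451, had 0.52, 0.58 and 0.08 in positive cells and 0.75, 1.56 and 1.77 in negative cells. Its log2 fold change was -0.97 without overlap, with a block adjusted p of 0.077. The others lay at -0.0026 and 0.13. A further Pinc probe, named by accession, was at 0.14 with overlapping groups (block adjusted p 0.634). The neighbouring coding genes Tnp1 and Tns1 were at -0.062 and 0.057.

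KCNQ1ot1, the imprinted antisense transcript within Kcnq1, had both its kept probes at 0.19. Their values differed mainly by replicate number. Their means were 2.18, 1.63 and 0.45 in positive replicates 1 to 3 and 2.23, 1.33 and 0.14 in negative ones. A further probe, named by accession, was at 0.25, lay below the reference and had the opposite order over replicates. It had -1.64, -1.44 and -0.92 in positive replicates 1 to 3 and -1.85, -1.71 and -1.19 in negative ones. Kcnq1 itself, a potassium channel gene, fell by 1.41 with an adjusted p of 0.0048 with the block (0.237 with the group alone). TUG1, a widely expressed lincRNA, had 5 probes with a median of 0.078, whereas Smtn, next to it in the GRCm38.p6 gene table and coding for the smooth muscle protein smoothelin, rose by 0.60 (block adjusted p 0.035). H19, an imprinted RNA of fetal tissues, had a median of 0.076 over 5 probes, and its neighbours Mrpl23 and Igf2 were at 0.18 and -0.15. NRON, HOTAIR and BRN1-A had medians of 0.12, 0.14 and -0.074. TSIX, the antisense partner of XIST, and lincP21 had 5 probes each and 0 kept.

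Noncoding RNAs with a gene symbol, read by other probes of the array, served for comparison. Of a list of 59, 26 were tested, 18 higher and 8 lower, with a median log2 fold change of 0.10, and 0 passed with the group alone. With the block 2 rose, Rmrp, the RNA of the RNase MRP ribonucleoprotein, by 0.83 (adjusted p 0.014) and Mirg, an imprinted host of microRNAs, by 0.62 (adjusted p 0.031). Over all tested probes 1.23% were called higher with the block and 3.2% lower. Of all 729 tested probes with a RefSeq noncoding RNA accession, 23 passed with the block (3.16%), 9 higher and 14 lower. Their median log2 fold change was 0.044. Rmrp had ratios of 6.37, 5.85 and 5.21 in positive replicates 1 to 3 and of 5.80, 4.82 and 4.33 in negative ones, so the groups overlapped while each pair moved one way.

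The replicate number accounted for most of the variation of the region probes, as it did for the mRNA probes. Across the 6 arrays it held a median of 73.2% of a region probe's variance, against 6.37% for the group and 12.2% for the rest, and 71.2% of an mRNA probe's. Arrays with the same number correlated at 0.882 to 0.952 across region probes, arrays of one group at 0.572 to 0.799, and arrays that shared neither at 0.535 to 0.779. The 3 replicate numbers differed by more than 1 log2 unit in 1049 region probes (12.8%, against 15.7% of mRNA probes) and by more than 2 in 152. By comparison, 26 differed by 1 or more between the groups.

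In 99 of those 152 probes replicate 2 stood apart as the lowest. The range between replicates exceeded 2 within the positive group in 137 of the 152 and within the negative group in 145. The probe with the widest range, A_30_P01027078 in chr17:88993214-89025839 on F, had 6.44, -0.29 and 2.95 in positive replicates 1 to 3 and 5.75, -0.39 and 1.28 in negative ones. Probe A_30_P01028043 in chr4:3009566-3009932 on R had 4.20, -1.50 and 4.32 against 2.85, -1.91 and 4.05. The fractions lay closer within each replicate than the full range between replicates. Replicate 3 of the first probe (2.95 against 1.28) and replicate 1 of the second (4.20 against 2.85) still differed. Neither probe passed in either fit. Of the 152, 2 passed with the block. One was A_30_P01027455 in chr5:137392195-137426421 on R, with 5.42, -0.43 and 1.59 against 4.75, -0.83 and 0.74, a log2 fold change of 0.64 (adjusted p 0.037 with the block) beside a range of 5.72 between replicates.

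**Figure D5:**
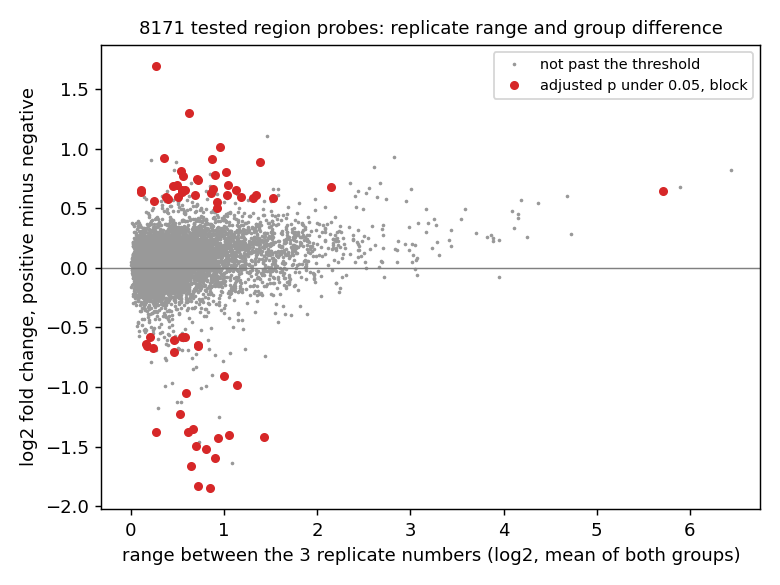
Log2 fold change (vertical axis) of 8171 tested region probes against the range between the 3 replicate numbers, each the mean of both groups (horizontal axis, log2 units). Red points are the 63 probes past an adjusted p of 0.05 with the block; probes with a replicate range over 2 have differences of at most 0.93 in size.

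Relative to the reference, 79 region probes were at least 2-fold higher on all 6 arrays and 155 at least 2-fold lower, with a median mean ratio of 0.20 over all. The highest mean was 3.57, for probe A_30_P01023929 in chr1:195332659-195335997 on R, at 4.30, 4.21 and 3.40 in positive replicates 1 to 3 and 3.55, 3.54 and 2.42 in negative ones. This probe also rose by 0.80 with the block (adjusted p 0.012), with overlapping groups, and the other 2 probes of its interval were at 0.62 and 0.19. The lowest mean was -3.31, for probe A_30_P01019583 in chr5:23195569-23218551 on R, which rose by 0.59 with the block (adjusted p 0.045). Ratios of different probes are not set against each other as levels, since each probe binds with its own strength and the reference holds its own level of each transcript.

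At the edge of the detection rule, the 860 region probes well above background on exactly 3 arrays had a median log2 fold change of 0.017, and the 1333 on exactly 2 arrays, just outside, 0.018. The mean brightness of these classes was 7.11 and 6.94 on the log2 scale at the median. On all 6 arrays 5484 probes were detected, with a median brightness of 8.40.

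The coding genes nearest to the positioned regions are not named here, because the regions are placed on mm9 and the gene table used here on GRCm38.p6, and positions were not carried between builds. Neighbours are given for the named transcripts alone, from the order of genes in that table.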

How the data were processed

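The authors deposited 1 scanner file per array (scanned with Agilent Feature Extraction, version 11.0 by the submitters' processing notes and 11.0.1.1 per the file headers) with median spot and background intensity in both channels and log10 ratios, and a table of log2 ratios of the series, which the values show to be centred on a median of 0 in 100% of its probes. Its centring is stated nowhere in the sources used here. Median signals were corrected with normexp (offset 50) and normalized by loess in limma 3.58.1 under R 4.3.3. Control and outlier-flagged spots had weight 0 and were left out, and spots of one probe were averaged. The planned mean signals were replaced by medians. Of 34544 probes kept, 24 were left out for a flagged spot. The other 34520 entered lmFit and eBayes, two-sided, with Benjamini-Hochberg adjustment over all of them. The main fit has the group alone.

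Replicate numbers 1 to 3 occur in both groups. Deviations of same-numbered arrays from their group means correlated at 0.773, 0.869 and 0.785 over region probes, so by the criterion used (over 0.1 in every pair) the numbers pair the arrays, and values with the number as a block are given beside. All arrays lay on 1 slide with 1 scan, so slide is no batch. No dyes were swapped.

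Named region probes are, per direction, up to 12 past the threshold with the largest change, no overlap and all 3 arrays of the higher group well above background, filled up to 6 by lowest p. Of 22103 RefSeq accessions on the array, 21700 matched a symbol. The members, lists and tests were chosen with earlier results of these data known. The fits were tested on simulated data.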

Additional observations from a re-analysis of the deposited data

How the results depend on the processing

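The count of region probes called with the group alone (1) was 1 without background subtraction, without a filter on dim probes, with 2 or more arrays of each group well above background, with array weights and with 1 probe per region and strand. It was 0 with the deposited value table, the scanner's ratios, median centring, Cy5 alone, all 6 arrays well above background, limma's trend and robust options, and probes averaged by region and strand (an alternative chosen after seeing the data). It was 49 with the replicate as a random block, 63 with the replicate block, and 0 to 8 without single arrays or pairs. Where limma's count was 0, 38 to 291 region probes had an unadjusted p under 0.05.

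The blocked count (63) was 12 with the scanner's ratios, 14 with the deposited table, 558 with median centring, 116 with array weights, 29 with 1 probe per region and strand, 8 with averaged probes, 1 with no replicate block, and 6 to 116 without a pair. The cause was not tested, except that 1 probe per region leaves 3713 region probes. The averaged regions called with 2 or more probes were 5.

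The median difference (0.059) was 0.13 under both the scanner's and the deposited ratios, -0.12 with median centring, 0.031 without the filter, 0.077 with all 6 arrays required, and -0.0062 to 0.10 without single arrays or pairs. Relative to all probes (0.029) it was 0.060 under both of these, 0.095 with median centring, and 0.0086 to 0.060 without arrays. The count of non-overlapping probes (473) was 1133 with median centring, 1191 without the filter, 291 with all 6 arrays required and 890 to 2054 without arrays, where fewer arrays overlap less easily.

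No named value changed sign. Of 24 named probes with the block, 4 passed in all 3 fits without a pair, and 6 passed in every alternative on all 6 arrays in which they were tested. Both counts include A_30_P01027803, which was kept only through its signal in the negative group and is given as a value. The comparison with nearest coding genes and its 3 alternatives was not run, since no gene positions on mm9 were used here.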

Other observations

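Averaging the probes of each region and strand before the fit, a choice made after seeing the data, left 8 region and strand averages past the threshold with the block (limma), against 4.21% of all 26488 features tested that way. Those read by 2 or more probes were chr1:175653557-175671940 on R (-1.09, adjusted p 0.047), chr2:67836003-67836461 on F (-0.87, adjusted p 0.042), chr8:40238025-40264250 on F (0.68, adjusted p 0.049), chr8:93337794-93348869 on R (0.84, adjusted p 0.036) and chr6:129151512-129208737 on F (0.92, adjusted p 0.0083). In chr2:67836003-67836461 on F and chr6:129151512-129208737 on F the 2 probes averaged differed widely (-1.85 and 0.11, 1.70 and 0.15), so those averages rest on 1 probe. The other averages past the threshold have 1 probe each and were lower. Among them is A_30_P01027803, which was kept only through its signal in the negative group and is given as a value. Its place among the 8 is therefore not read as a difference between the groups.

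Of 1188 regions and strands with 3 or more tested probes, 298 had all of them higher and 57 all of them lower, with most of these differences small. Since 65.4% of all tested region probes were higher, these counts are not read as agreement within regions.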
